A study of Homo sapiens with 62 samples.

Results

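The integrated stress response and the unfolded protein response were followed in newly made RNA of 2 human pancreatic cancer lines through 10 genes: ATF4, DDIT3, ASNS, CHAC1, TRIB3, SESN2 and PPP1R15A for the first, and HSPA5, XBP1 and DNAJB9 for the second. The genes were picked by name, with earlier results of these data known, and each is 1 row of tables that hold 29794 genes. The lines were AsPC-1, a model of classical pancreatic ductal adenocarcinoma, and T3M-4, a basal-like model. All 62 libraries came from cells of the genotype FKBP12-F36V-FLAG-KLF5_sgEndogenousKLF5, in which the transcription factor KLF5 of the cell was knocked out and a degradable tagged copy was supplied by lentivirus, in selected pools of cells and not in single clones. In SLAM-seq, cells take up 4-thiouridine before harvest, so that T>C conversions mark the reads of transcripts made while it was present.

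Cells received dTAGv1, which degrades the tagged KLF5 (the dTAG group), or its inactive analogue dTAG-NEG (the NEG group), for 4 h. Other cells received CB6644 (also written CB-6644), an inhibitor of the RUVBL1/2 ATPases, or its solvent DMSO, for 4 h and in AsPC-1 also for 12 h. A further group received NVP2 (NVP-2), an inhibitor of the elongation kinase CDK9, for 4 h, and was compared with DMSO at 4 h. AsPC-1 had 10 dTAG, 10 NEG, 5 CB6644 and 5 DMSO libraries at 4 h, 4 CB6644 and 4 DMSO libraries at 12 h, and 4 NVP2 libraries. T3M-4 had 4 libraries in each of its 5 groups. Both lines expressed their epithelial markers: KRT8, KRT18, KRT19, EPCAM and CDH1 summed to between 3720 and 9210 CPM (counts scaled to library size) of all reads in AsPC-1 control libraries and between 1340 and 2140 in those of T3M-4. Fibroblast markers summed to at most 18 CPM in AsPC-1 and 9.47 in T3M-4, leukocyte markers to at most 15.1 and 2.87 with PTPRC and CD3E below 1 CPM, and endothelial markers to at most 0.0864 and 1.21.

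The integrated stress response begins with kinases that phosphorylate the translation initiation factor eIF2. General protein synthesis then falls while translation of the transcription factor ATF4 rises, and ATF4 turns on genes of amino acid supply, of redox control and of cell death. The unfolded protein response shares the kinase PERK with it and adds the IRE1 branch, in which XBP1 mRNA is spliced, and the ATF6 branch, both of which raise chaperones of the endoplasmic reticulum. Secretory tissues such as the exocrine pancreas are known for heavy use of this response.

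Short sequences upstream of such genes are bound by these factors, and they are shown here because they set some members apart from others. RefSeq promoters (GRCh38.p14, 250 bases before to 50 bases after each start) were matched for 10 of the 10 members, in 16 windows. They were searched on both strands for TGATGNAAN (CARE, the element of ATF4 with a C/EBP partner), for CCAAT and CCACG with 9 bases between them (ERSE, the element of ATF6 and XBP1) and for ATTGG and CCACG with 1 base between them (ERSE-II). CARE occurred in 1268 of 35116 promoters of that length (3.61%), ERSE in 27 (0.0769%) and ERSE-II in 19 (0.0541%). The windows of 4 members held a match, each printed below 5′ to 3′ on the strand of its gene, with the match in capitals.
ASNS, CARE at -68 to -60, chr7:97872457-97872486, minus strand: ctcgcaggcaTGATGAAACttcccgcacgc
CHAC1, CARE read on the opposite strand, at -210 to -202, chr15:40953251-40953280, plus strand: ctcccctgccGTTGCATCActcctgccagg
HSPA5, ERSE at -66 to -48, chr9:125241385-125241414, minus strand: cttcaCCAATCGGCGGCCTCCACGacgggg
XBP1, ERSE at -52 to -34, chr22:28800597-28800626, minus strand: gctggCCAATCGCGGAGGGCCACGaccgta
These letters were not in the windows of ATF4, DDIT3, TRIB3, SESN2, PPP1R15A and DNAJB9. A match is a description of the sequence and not of binding, and the data held no readout at these promoters.

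Reads were counted over annotated 3′UTR exons and summed per gene, and some reads entered a sum more than once. Every count of DDIT3 was a multiple of 4, and 52 of the 62 T>C counts of ATF4 were. Levels are therefore compared within a gene and not between genes. AsPC-1 libraries held 2240998 to 18311982 T>C reads and T3M-4 libraries 3714015 to 27982537, with the lowest totals after NVP2. T>C CPM were scaled within each comparison, so a DMSO library has a slightly different value beside CB6644 than beside NVP2. KLF5, whose protein is the target of dTAGv1, had higher T>C reads after dTAG by 0.60 on the log2 scale (SE 0.11, edgeR adjusted p = 0.00284) in AsPC-1 and by 0.90 (SE 0.15, adjusted p = 0.0258) in T3M-4. These reads lie in the 3′UTR and are no check of the loss of the protein. AsPC-1 libraries were clustered by their 500 most variable genes and cut into 3 sets, a number set beforehand. Of these, 1 was experiment 2 of batch 1, and the other 2 cut across treatments. ASNS had 177 ± 54.2 CPM of all reads (SD, n = 8) in the control libraries of 1 set, 97.7 ± 28.7 (n = 7) in the second and 95.2 ± 8.53 (n = 4) in the third. The part of these sets in the results was not tested beyond fits with the set as a block.

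The share of a gene's reads that carried T>C conversions separated the members before any treatment. In NEG libraries of AsPC-1, PPP1R15A had a labelled share of 45.8% ± 3.84 (SD, n = 10), DNAJB9 41.2% ± 5.61, DDIT3 38.3% ± 8.23 and SESN2 35.5% ± 3.71, whereas ASNS had 9.79% ± 2.04 and HSPA5 9.79% ± 0.825. XBP1 (26.8% ± 4.25), TRIB3 (26.5% ± 3.0), CHAC1 (26.3% ± 6.0) and ATF4 (23.2% ± 2.37) lay between these groups, and those 4 did not differ from each other beyond their spread. The order differed in T3M-4, where CHAC1 stood first and XBP1 had a larger share than TRIB3 and ATF4. The larger shares there were CHAC1 68.2% ± 5.99 (n = 4), PPP1R15A 65.3% ± 3.47, DNAJB9 64.4% ± 8.03, SESN2 61.9% ± 4.76, DDIT3 57.3% ± 6.66 and XBP1 48.5% ± 8.75. TRIB3 (28.2% ± 0.520), ATF4 (24.9% ± 2.94), HSPA5 (13.9% ± 1.61) and ASNS (9.83% ± 1.72) had the smaller shares there.

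Set against genes with at least 1000 reads over the group, ASNS and HSPA5 lay below the median gene in both lines and the other 8 members above it. CHAC1 itself had fewer than 1000 reads in AsPC-1 NEG libraries, so there it was placed against genes of deeper coverage. In AsPC-1 NEG libraries the median gene had a pooled share of 14.4%. 30.4% of genes lay below ASNS and 29.8% below HSPA5, while 97.7% lay below PPP1R15A and 95.3% below DNAJB9. In T3M-4, with a median of 17.0%, 20.5% of genes lay below ASNS, 38.4% below HSPA5 and 98.6% below CHAC1. PPP1R15A, the regulatory subunit that brings phosphatase to eIF2, and the transcription factor DDIT3 (CHOP) thus had a larger labelled part than most genes, and the enzyme ASNS and the chaperone HSPA5 (BiP) a smaller one. The share also depends on the T content of each 3′UTR, which was not tested. The plot of labelled shares gives every library.

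**Figure D1:**
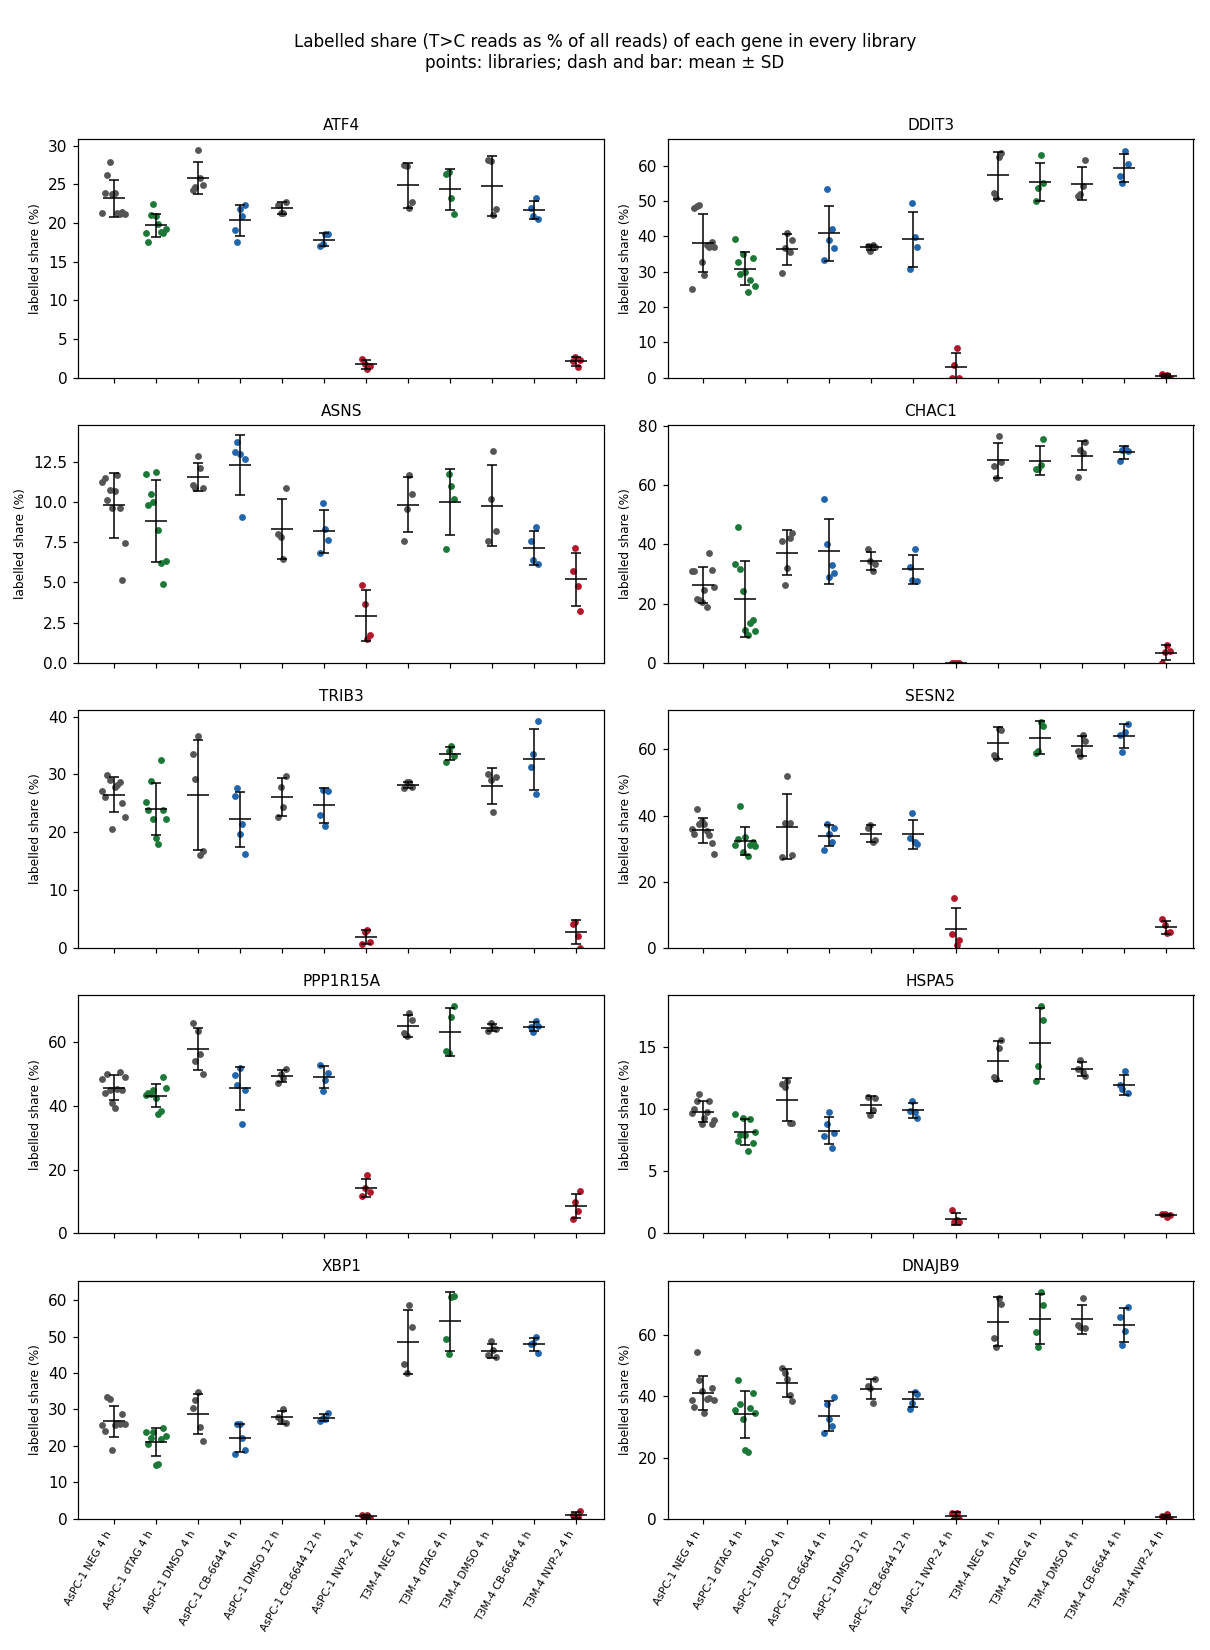
Labelled share of each member (T>C reads in percent of the reads of the gene, vertical axis from 0, 1 panel a gene) by group of libraries (horizontal axis); points are libraries, and the dash and bar are the mean ± SD. ASNS and HSPA5 have the smallest shares in control groups, 9.79% and 9.79% on average in AsPC-1 NEG libraries, and no NVP-2 library of any member exceeds 18.3%.

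Loss of KLF5 was compared with the inactive analogue to ask whether stress genes respond within hours. No member passed the test in T>C reads in either line: 0 of 10 in AsPC-1, where 2.4% of all genes tested were called (edgeR, adjusted p under 0.05), and 0 of 10 in T3M-4, where 0.834% were. DESeq2 also called 0 members in both. At an unadjusted edgeR p under 0.05 there was 1 member in each line, beside 1413 of 11696 genes in AsPC-1 and 957 of 13424 in T3M-4. Libraries came from 3 experiments in AsPC-1 and 2 in T3M-4, and those of 1 experiment may be technical repeats, so p-values here and below measure the spread between libraries. Fewer responding cells and less RNA per cell cannot be told apart in such bulk libraries.

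In AsPC-1 the member with the smallest p was DNAJB9, a co-chaperone of HSPA5 in the endoplasmic reticulum. Its T>C CPM ran from 3.90 to 18.4 with a median of 8.15 in dTAG libraries and from 3.67 to 8.60 with a median of 5.75 in NEG libraries. The groups overlapped, with 4 of 10 dTAG libraries above all NEG libraries, and the log2 fold change was 0.57 (SE 0.24, edgeR p = 0.0270, adjusted p = 0.311). In all reads the log2 fold change of DNAJB9 stood at 0.52 (SE 0.18, edgeR unadjusted p = 0.00893, adjusted p = 0.342), and with experiment as a block it was called (adjusted p = 0.0295), where no other member was. The other 9 members in AsPC-1 had log2 fold changes in T>C reads between -0.11 (CHAC1) and 0.34 (SESN2), with adjusted p of 0.541 or more.

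HSPA5 had the smallest p in T3M-4. Its T>C CPM was 644, 620, 467 and 418 in dTAG libraries and 409, 403, 369 and 396 in NEG libraries. Each of the 4 dTAG libraries exceeded the highest NEG library, and the log2 fold change of 0.45 (SE 0.18, edgeR p = 0.0344) did not pass correction (adjusted p = 0.597). The labelled share of HSPA5 did not pass the test either (limma log2 difference 0.15, SE 0.17, adjusted p = 0.922). TRIB3, a pseudokinase induced by ATF4 and DDIT3, had 25.9, 28.3, 16.2 and 16.1 CPM in dTAG libraries against 16.2, 18.2, 11.3 and 11.7 in NEG libraries. Within each experiment both dTAG libraries of TRIB3 lay above both NEG libraries, while the groups overlapped across experiments (log2 fold change 0.59, SE 0.27, edgeR adjusted p = 0.716). The other 8 members lay between -0.22 (PPP1R15A) and 0.30 (ASNS).

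Differences between the lines were tested as interaction terms. For dTAG the largest was that of HSPA5, at 0.55 (T3M-4 minus AsPC-1, log2, SE 0.25, edgeR adjusted p = 0.836), and 0 of 10 members were called against 0.0426% of genes. In all reads, 0 members were called in AsPC-1 (0.797% of genes) and 0 in T3M-4 (0.0191%), and DESeq2 also called 0 in each. At an unadjusted edgeR p under 0.05 there were 1 and 0 members, beside 1056 of 13931 and 533 of 15727 genes.

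The labelled share after dTAG fell for 3 members in AsPC-1. ATF4 fell from 23.2% ± 2.37 (SD, n = 10) in NEG libraries to 19.7% ± 1.5 (n = 9), by 0.30 on the log2 scale of labelled over unlabelled reads (SE 0.08, limma adjusted p = 0.0103). HSPA5 fell from 9.79% ± 0.825 to 8.16% ± 1.02 (adjusted p = 0.0112), and XBP1 from 26.8% ± 4.25 to 21.0% ± 3.74 (adjusted p = 0.0220). Of all genes 32.3% had a lower share, with a median difference of -0.33 over genes and -0.30 over the members, so the 3 of 10 stand at the level of the background. The library's own labelled share moved with it, at 9.30% in NEG and 8.0% in dTAG libraries on average. Within batch 1 alone 2 members were called. Within batch 2 alone 0 were, where 29 of 14410 genes were called, with ATF4 at -0.21 (SE 0.11), HSPA5 at -0.25 (SE 0.14) and XBP1 at -0.28 (SE 0.14). In T3M-4, 0 of 10 members were called by share, against 0.197% of genes, and 0 had an unadjusted limma p under 0.05.

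**Figure D2:**
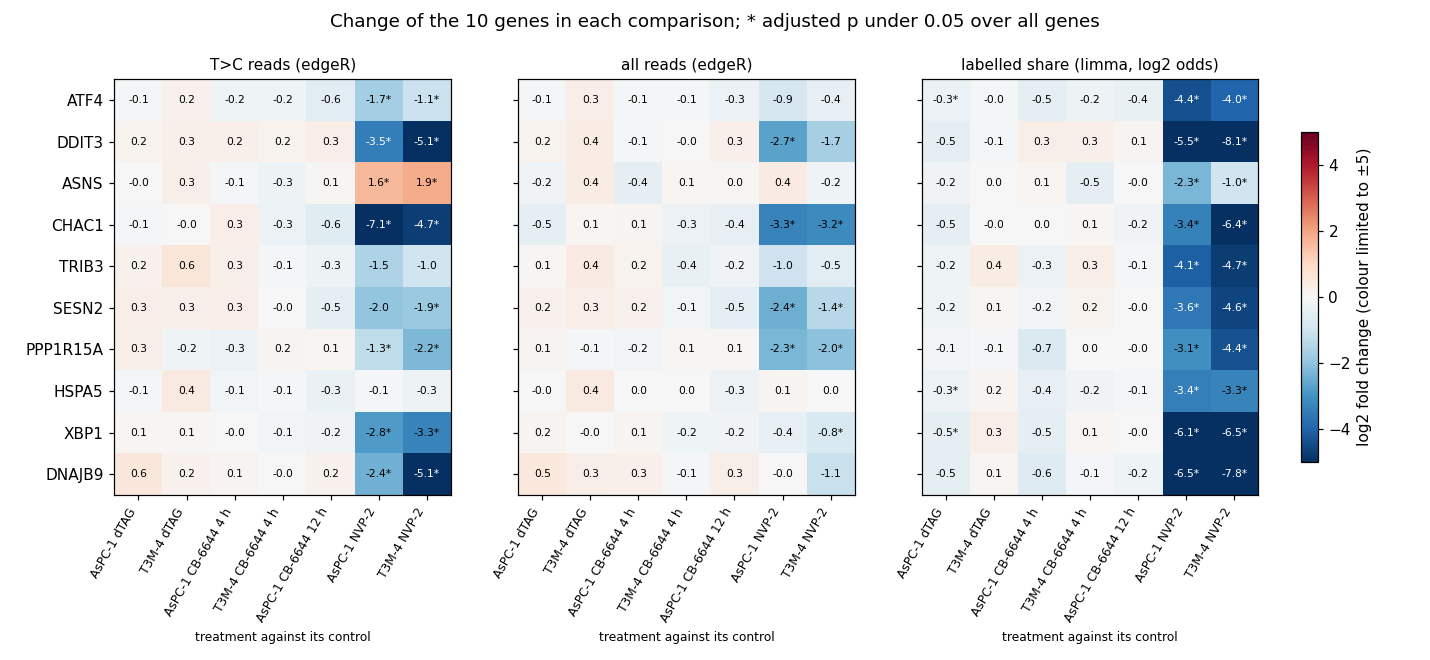
Log2 fold change of each member (rows) in the 7 comparisons of a treatment with its control (columns), as a colour limited to ±5 with the value printed in each cell, for T>C reads, all reads and the labelled share as log2 odds; an asterisk marks an adjusted p under 0.05 over all genes. In T>C reads asterisks occur in the NVP-2 columns alone, 7 in AsPC-1 and 8 in T3M-4, with ASNS positive and the others negative on this scale; scaled by all reads ASNS is negative too.

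CB6644 was compared with DMSO to ask what inhibition of the RUVBL1/2 ATPases does to new RNA. At 4 h no member was called in T>C reads in AsPC-1 or T3M-4, where 0% and 0% of all genes were called, and DESeq2 called 0 members in both. 0 members had an unadjusted edgeR p under 0.05 in either line. ATF4 had 629, 451, 352, 405 and 327 T>C CPM after CB6644 in AsPC-1 and 532, 498, 460, 513 and 481 after DMSO. 4 of the 5 CB6644 libraries lay below every DMSO library and 1 lay above (log2 fold change -0.20, SE 0.17, edgeR adjusted p = 0.980). In T3M-4 ATF4 had 1134, 1617, 1792 and 1435 CPM against 2061, 1454, 1613 and 1730, and the groups overlapped (-0.20 on the log2 scale, SE 0.20, edgeR adjusted p = 0.996).

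ASNS, which makes asparagine and is a standard readout of ATF4, varied more between libraries than between treatments. Its T>C CPM in AsPC-1 was 324, 97.9, 70.0, 100.3 and 111 after CB6644 and 225, 196, 84.0, 119 and 118 after DMSO at 4 h. The highest library of either group came from experiment 1, and the difference was -0.08 on the log2 scale (SE 0.41, edgeR adjusted p = 0.994). HSPA5 ran from 180 to 254 CPM after CB6644 and from 212 to 273 after DMSO in AsPC-1, and from 283 to 498 against 350 to 459 in T3M-4. Over the 10 members the log2 fold changes lay between -0.29 (PPP1R15A) and 0.34 (CHAC1) in AsPC-1 and between -0.30 (CHAC1) and 0.18 (DDIT3) in T3M-4. CHAC1, which degrades glutathione, had 1.27 to 5.04 CPM after CB6644 and 0.926 to 4.36 after DMSO in AsPC-1, ranges that overlapped at low T>C counts.

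At 12 h of CB6644 in AsPC-1 again 0 of 10 members were called in T>C reads (0% of genes, DESeq2 0 members). An unadjusted edgeR p under 0.05 was found for 1 member and for 473 of 12204 genes. That member was ATF4, with 471, 293, 504 and 438 CPM after CB6644 and 465, 827, 645 and 579 after DMSO. The first CB6644 library and the first DMSO library lay within 10 CPM of each other, and the groups overlapped. The log2 fold change was -0.56 (SE 0.24, edgeR p = 0.0394, adjusted p = 0.998; with library number as a block, p = 0.0601). The labelled share of ATF4 separated the groups, at 17.0% to 18.6% after CB6644 and 21.3% to 22.8% after DMSO, with a limma log2 difference of -0.37 (SE 0.10, p = 0.00355) that did not pass correction (adjusted p = 0.697). DDIT3, by contrast, had 44.1 to 55.9 T>C CPM after CB6644 and 28.5 to 47.0 after DMSO (0.34 on the log2 scale, SE 0.20, edgeR adjusted p = 0.998).

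The shares of ATF4 at 4 h pointed the same way without passing the test. In AsPC-1 ATF4 had 20.3% ± 1.98 (SD, n = 5) after CB6644 and 25.8% ± 2.08 after DMSO, with no overlap (17.6% to 22.4% against 24.3% to 29.4%, limma adjusted p = 0.0783). The labelled share of whole libraries was also lower there, 8.51% ± 0.254 against 10.1% ± 0.622, and the part of this in the value of ATF4 was not tested. T3M-4 had 21.7% ± 1.2 against 24.8% ± 3.87 (n = 4, limma adjusted p = 1.00). By share, 0 members were called in AsPC-1 at 4 h (1.4% of genes), in T3M-4 (0%) and in AsPC-1 at 12 h (0.0139%). An unadjusted limma p under 0.05 was found for 4, 0 and 1 members, beside 2882 of 13891, 481 of 15761 and 684 of 14398 genes. In all reads the counts of members called were 0, 0 and 0 against 0%, 0.0127% and 0% of genes, 0 members had an unadjusted edgeR p under 0.05 in any of them, and DESeq2 called 0.

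No interaction was called for CB6644. Between lines at 4 h, 0 of 10 members and 0% of genes were called, and between 12 h and 4 h in AsPC-1 also 0 of 10 and 0%. For both, 0 members had an unadjusted edgeR p under 0.05 and DESeq2 called 0 members. ATF4 had an interaction of -0.36 (12 h minus 4 h, log2, SE 0.29, edgeR p = 0.226), and time coincides with batch there. The plot of T>C CPM by library for CB6644 shows both times.

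**Figure D3:**
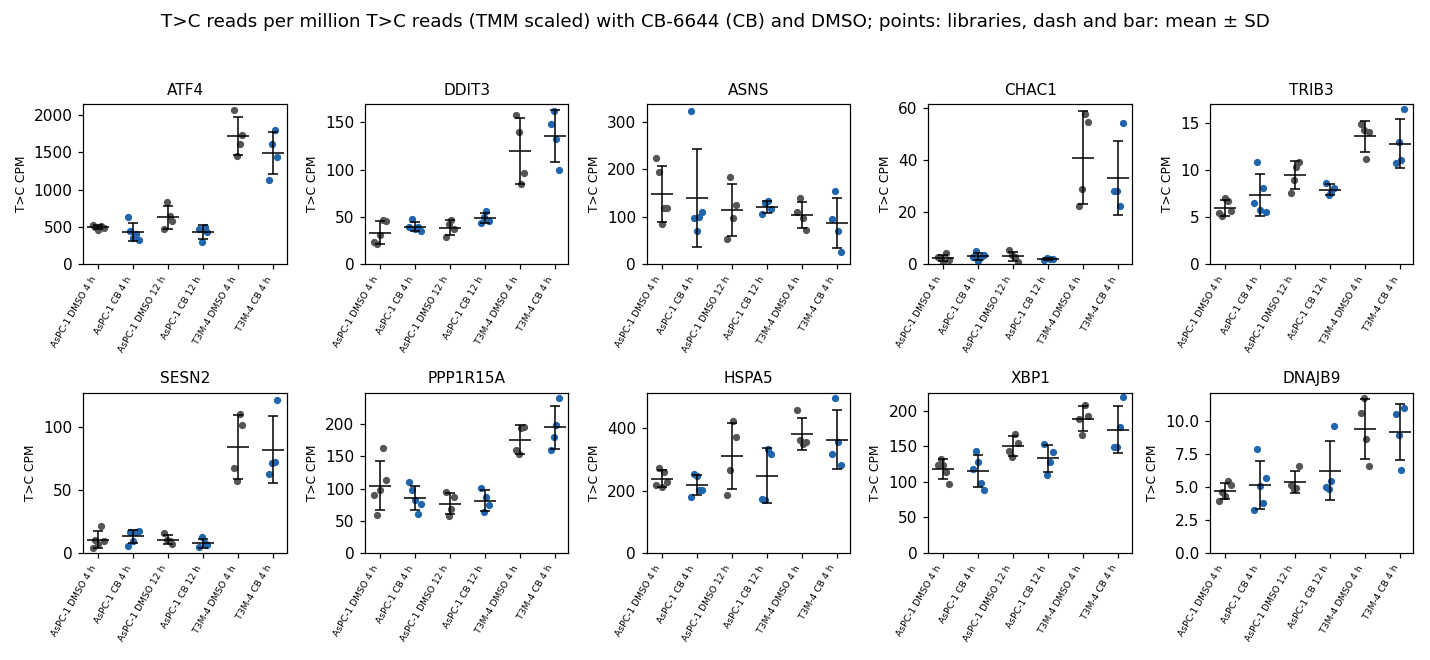
T>C CPM of each member (vertical axis from 0, 1 panel a gene) in CB-6644 (CB) and DMSO libraries of AsPC-1 at 4 h and 12 h and of T3M-4 at 4 h; points are libraries, and the dash and bar are the mean ± SD. The ranges of treated and control libraries overlap for every member, and ATF4 at 12 h lies at 293 to 504 after CB-6644 and at 465 to 827 after DMSO.

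NVP2 was included as a general block of transcription, and it changed most members. Relative to the library's other T>C reads, ASNS rose and ATF4, DDIT3, CHAC1, PPP1R15A, XBP1 and DNAJB9 fell in both lines. SESN2 fell in T3M-4. The called members were 1 higher and 6 lower in AsPC-1, against 12.9% and 17.6% of all genes (30.5% in either direction), and 1 higher and 7 lower in T3M-4, against 12.4% and 14.2% (26.7%). The lower count in AsPC-1 includes CHAC1, at 0 T>C reads in every NVP2 library, which passed the filter through the DMSO libraries alone and so could only be lower. DDIT3 and DNAJB9 in both lines and CHAC1 and TRIB3 in T3M-4 also had NVP2 libraries without T>C reads. TRIB3 and SESN2 in AsPC-1 had NVP2 libraries with fewer T>C reads than the filter asks for. The NVP2 libraries alone could not have carried these genes past the filter, so they were tested because they were high after DMSO. Those of them that were called count among the lower members, and all of them enter the medians that follow. The median log2 fold change of the 10 members was -1.83 in AsPC-1 and -2.05 in T3M-4, beside -0.05 and -0.12 over all genes tested. In AsPC-1 the NVP2 libraries are labelled batch 2 and the DMSO libraries at 4 h batch 1, so batch and treatment cannot be told apart there. With batch 2 controls in place of them 6 members (NEG of experiment 3) and 5 members (DMSO at 12 h) were called, ASNS and ATF4 among them in each. CHAC1 was too low to be tested there, PPP1R15A was called in neither (-0.86 and -0.71, edgeR adjusted p = 0.0790 and 0.180), and DNAJB9 with the NEG libraries alone (adjusted p = 0.0252 and 0.0570).

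The whole library lost label after NVP2, and this sets what a T>C fold change means. On average 1.57% of all reads carried T>C conversions in AsPC-1, against 10.1% after DMSO, and 2.24% against 12.4% in T3M-4. When T>C counts were scaled by all reads instead, the median over all genes moved to -3.05 in AsPC-1 and -2.97 in T3M-4. On that scale 10 and 9 members were lower and none was higher. No spike-in and no library without 4-thiouridine was used here, so new RNA was not measured per cell, and how many of the remaining T>C reads come from other sources than labelling is unknown.

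ATF4, the factor at the centre of the response, fell. Its T>C CPM in AsPC-1 was 177, 188, 50.4 and 90.4 after NVP2 and 444, 412, 380, 426 and 402 after DMSO (-1.71 on the log2 scale, SE 0.34, edgeR adjusted p = 0.00337). In T3M-4 it was 567, 537, 642 and 825 against 1624, 1123, 1309 and 1394 (log2 fold change -1.08, SE 0.25, edgeR adjusted p = 0.00999). The groups did not overlap in either line. The interaction between lines was 0.59 (SE 0.43, edgeR adjusted p = 0.592). ATF4 (ENSG00000128272.18) lies on chromosome 22, 39519695 to 39522683, plus strand, with its 3′UTR from 39521737.

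DDIT3 and CHAC1, which lie downstream of ATF4 in the route to cell death, fell in both lines. DDIT3 had 0, 4.95, 4.88 and 0 T>C CPM after NVP2 in AsPC-1 against 19.5, 17.5, 25.2, 39.1 and 38.1, and 5.26, 2.49, 2.68 and 0 in T3M-4 against 124, 108, 68.9 and 78.0. The log2 fold changes were -3.46 (SE 0.78, edgeR adjusted p = 0.00623) and -5.14 (SE 0.67, adjusted p = 0.000712), and -3.43 and -5.10 with its counts divided by 4. Only 24 T>C counts of DDIT3 remained in AsPC-1 and 40 in T3M-4, which at 4 counts a read are 6 and 10 reads. Its 3′UTR (chromosome 12, 57516588 to 57516811, minus strand) overlaps exons of MARS1 on the opposite strand.

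CHAC1 had no T>C read in any of the 4 NVP2 libraries of AsPC-1, out of 39 reads in all, while DMSO libraries had 2.29, 1.94, 0.765, 3.63 and 1.49 CPM. Against a floor of 3 counts over the group it was at least 6.3-fold lower, and its share could be up to 7.69% by the same floor. Its fitted fold change depends on the prior count, and the median of the members is -1.83 also with CHAC1 at its bound. In T3M-4 CHAC1 had 0, 1.25, 2.01 and 1.89 CPM against 17.7, 22.4, 46.8 and 44.1 (-4.71 on the log2 scale, SE 0.74, edgeR adjusted p = 0.00146). All NVP2 libraries lay below all DMSO libraries in both lines. CHAC1 is on chromosome 15, 40952962 to 40956512, plus strand.

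ASNS was the exception among the members. In T3M-4 it had 447, 444, 195 and 109 T>C CPM after NVP2 and 86.6, 107, 79.1 and 58.2 after DMSO, so that the lowest NVP2 library exceeded the highest DMSO library (1.85 on the log2 scale, SE 0.44, edgeR adjusted p = 0.0116). In AsPC-1 it had 467, 785, 99.95 and 160 against 188, 162, 69.4, 98.5 and 98.6, and the groups overlapped. NVP2 libraries 1.1 and 1.2 were high, and 2.1 and 2.2 lay within or near the control range. Those at 467 and 785 belong to the library set with the higher ASNS, as do the DMSO libraries at 188 and 162. Those at 99.95 and 160 share a set with the DMSO library at 69.4. Among NVP2 libraries experiment and library set coincide and cannot be told apart. The fit of all libraries gave 1.62 (SE 0.52, edgeR adjusted p = 0.0340). Leaving out 1 library at a time, ASNS was called in 4 of 9 fits in AsPC-1, with adjusted p up to 0.151 without NVP2 library 1.2, and in 8 of 8 in T3M-4.

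The direction of ASNS turned with the scaling: relative to all reads it was -1.35 in AsPC-1 (edgeR adjusted p = 0.0352) and -0.90 in T3M-4 (adjusted p = 0.157). ASNS thus rose against other T>C reads and did not rise against all reads. Its labelled share was 4.82%, 3.68%, 1.51% and 1.71% after NVP2 in AsPC-1 and 10.9% to 12.8% after DMSO. In T3M-4 it was 5.72%, 7.13%, 4.77% and 3.21% against 7.55% to 13.2%. All NVP2 libraries lay below all DMSO libraries. The share of ASNS had the smallest decrease of the members, -2.28 in AsPC-1 (log2 of labelled over unlabelled reads, SE 0.33, limma adjusted p = 5.02e-05) and -1.0 in T3M-4 (SE 0.33, adjusted p = 0.0167). Pooled over the NVP2 libraries it went from below the median gene to above it, with 80.2% of genes below ASNS in AsPC-1 and 88.4% in T3M-4. ASNS is on chromosome 7, 97851677 to 97872542, minus strand, and its 3′UTR shares exon sequence on the same strand with ENSG00000284707, so that its reads could be split between the 2 records.

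TRIB3 and SESN2, both induced by ATF4, were read from few T>C counts after NVP2. TRIB3, 16 T>C counts in AsPC-1, had 0.378, 2.06, 3.25 and 1.1 CPM against 4.27 to 5.78, without overlap (log2 fold change -1.53, SE 0.58, edgeR adjusted p = 0.0637). In T3M-4 TRIB3 had 8.15, 9.13, 4.02 and 0 CPM against 9.04 to 11.7 (-0.99, SE 0.77, edgeR adjusted p = 0.378). SESN2, a sestrin that restrains the growth kinase mTORC1, had 0.755, 6.60, 0.406 and 1.1 CPM in AsPC-1 against 3.58 to 18.0 (-1.96, SE 0.77, edgeR adjusted p = 0.0728). In T3M-4 SESN2 fell, with 21.3, 23.7, 14.7 and 14.4 CPM against 53.4, 44.4, 89.6 and 82.0 (-1.86, SE 0.35, edgeR adjusted p = 0.00356). DESeq2 called TRIB3 (adjusted p = 0.0295) and SESN2 (adjusted p = 0.0402) in AsPC-1. Both were tested there because they were high after DMSO, as was TRIB3 in T3M-4. TRIB3 is on chromosome 20, 362835 to 397559, and SESN2 on chromosome 1, 28259518 to 28282491, both on the plus strand.

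PPP1R15A (GADD34) had the largest pooled labelled share of the members after NVP2, at 14.5% in AsPC-1 and 8.21% in T3M-4. Its libraries overlapped those of SESN2 (1.03% to 15.1% and 4.44% to 8.76%), and in T3M-4 also those of ASNS and CHAC1. By library the share of PPP1R15A was 11.8%, 14.4%, 18.3% and 12.9% in AsPC-1, where DMSO libraries had 50.2% to 66.0%. In T3M-4 it was 4.60%, 9.94%, 7.01% and 13.3%, where DMSO libraries had 63.7% to 66.1%. The T>C CPM of PPP1R15A fell by 1.26 on the log2 scale in AsPC-1 (SE 0.37, edgeR adjusted p = 0.0219), from 48.4 to 136 after DMSO to 20.2 to 53.2, with 3 of 4 libraries below every control. In T3M-4 it fell by 2.25 (SE 0.35, edgeR adjusted p = 0.00141), from 118 to 158 to 20.0 to 48.2, with no overlap. PPP1R15A lies on chromosome 19, 48872212 to 48876059, plus strand.

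In the unfolded protein response, XBP1 and DNAJB9 fell and HSPA5 did not pass the test. XBP1 had 19.6, 9.89, 21.1 and 4.41 T>C CPM after NVP2 in AsPC-1 against 103, 110, 103, 94.99 and 81.1 (log2 fold change -2.82, SE 0.39, edgeR adjusted p = 0.000407). In T3M-4 it had 13.7, 9.96, 6.70 and 29.9 against 148, 128, 169 and 156 (-3.33, SE 0.45, edgeR adjusted p = 0.000786). No NVP2 library overlapped the DMSO range. These counts cover the 3′UTR of XBP1 (chromosome 22, 28794555 to 28795548, minus strand) and do not tell spliced from unspliced mRNA.

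DNAJB9 (chromosome 7, 108569867 to 108574850, plus strand) had 1.13, 0, 1.63 and 0 T>C CPM after NVP2 in AsPC-1 and 3.29 to 4.51 after DMSO (log2 fold change -2.41, SE 0.80, edgeR adjusted p = 0.0381). In T3M-4 only 3 T>C reads of DNAJB9 were left in the 4 libraries, out of 566 reads in all, a share of 0.53% with an exact Clopper-Pearson 95% interval of 0.109% to 1.54%. Against the mean of the DMSO libraries this was 35.3-fold lower, with a 95% counting interval of 12.1-fold to 171-fold. Such intervals cover counting error only, and reads without molecular identifiers are not independent molecules. Over the same libraries the all-read CPM of DNAJB9 was 1.49, 1.12, 0.317 and 0.373 against 2.25, 2.44, 1.27 and 1.11.

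HSPA5 kept its place among T>C reads. It had 205, 154, 162 and 212 CPM after NVP2 in AsPC-1 and 181, 226, 175, 217 and 191 after DMSO (log2 fold change -0.11, SE 0.19, edgeR adjusted p = 0.689). In T3M-4 it had 311, 236, 242 and 218 against 362, 279, 284 and 287 (-0.27, SE 0.24, edgeR adjusted p = 0.442). The groups overlapped in both lines. Scaled by all reads HSPA5 stood at -3.12 in AsPC-1 and at -3.14 in T3M-4, close to the median of all genes, and its labelled share fell from 10.8% ± 1.71 (SD, n = 5) to 1.17% ± 0.472 (n = 4) and from 13.2% ± 0.529 to 1.48% ± 0.110 (n = 4). HSPA5 is on chromosome 9, 125234853 to 125241382, minus strand.

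**Figure D4:**
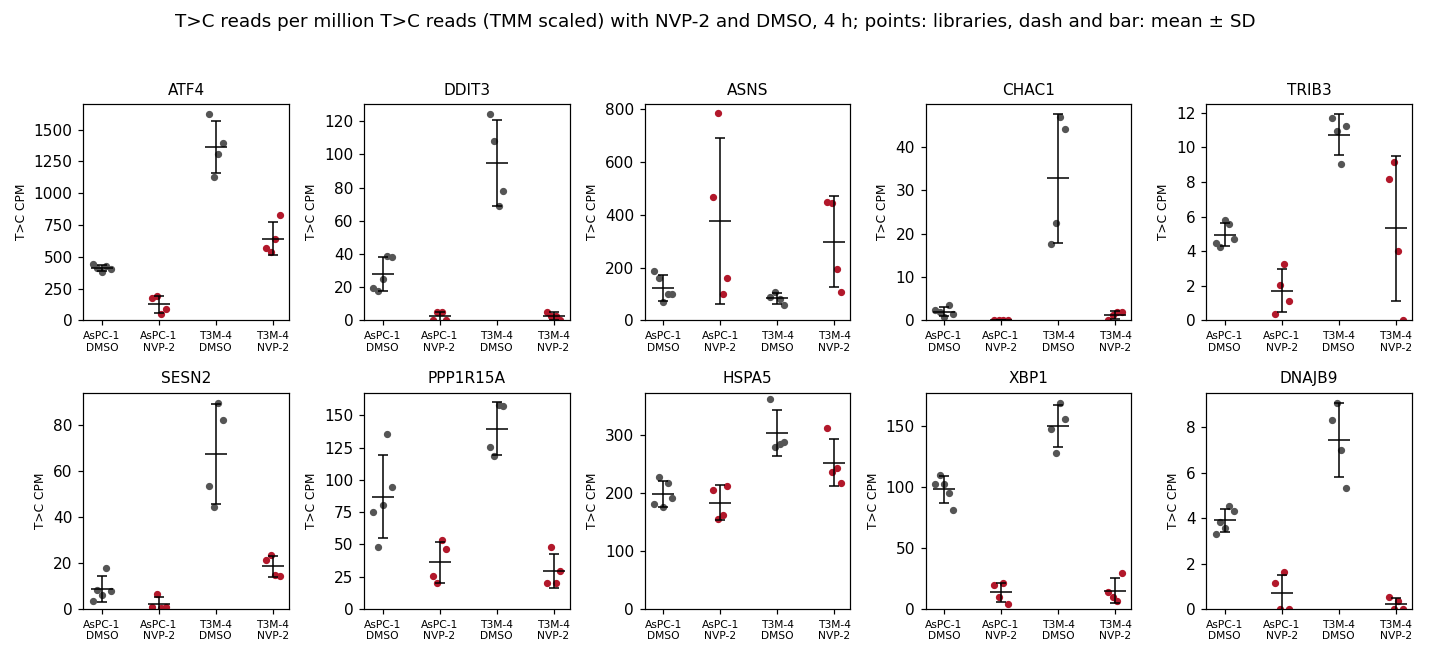
T>C CPM of each member (vertical axis from 0, 1 panel a gene) in NVP-2 and DMSO libraries at 4 h of AsPC-1 and T3M-4; points are libraries, and the dash and bar are the mean ± SD. ASNS reaches 785 after NVP-2 in AsPC-1 and 447 in T3M-4 (relative to T>C reads; scaled by all reads its change is negative), HSPA5 overlaps its controls, and CHAC1 is at 0 in all 4 NVP-2 libraries of AsPC-1.

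Labelled shares fell for 10 of 10 members in each line after NVP2 (limma), beside 86.2% of all genes in AsPC-1 and 81.7% in T3M-4. CHAC1 in AsPC-1 had 0 T>C reads out of 39 after NVP2, so its value was set by the pseudocount and could only be lower. With a pseudocount of 5, 9 members and 12238 of 14095 genes were lower in AsPC-1. Without DMSO library 2.1, 9 members and 12525 of 15963 genes were lower in T3M-4. The median difference of the members was -3.84 in AsPC-1 and -4.66 in T3M-4, beside -3.29 and -3.43 over all genes. With a pseudocount of 5 it was -3.19 and -4.39, beside -2.84 and -2.82. With edgeR and all reads as offset it was -3.68 and -3.45, beside -3.03 and -2.98. DNAJB9 (-6.48, SE 0.70) and XBP1 (-6.13, SE 0.45) fell most in AsPC-1, and DDIT3 (-8.09, SE 0.70) and DNAJB9 (-7.80, SE 0.79) in T3M-4. DNAJB9 and DDIT3 had NVP2 libraries without T>C reads, so their values and this order depend on the pseudocount. Of the 2 genes with the smallest shares in control libraries, HSPA5 fell by 3.404 and 3.34, near the median gene, and ASNS fell less.

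In total RNA 4 members fell in each line. Batch and treatment cannot be told apart in AsPC-1. With batch 2 controls there, 6 members and 931 of 14237 genes (NEG of experiment 3) and 5 members and 658 of 14270 genes (DMSO at 12 h) were lower. DNAJB9, at 44.3% ± 4.63 (SD, n = 5) labelled after DMSO in AsPC-1, stood at -0.02 on the log2 scale in that line (SE 0.30, edgeR adjusted p = 0.972). In T3M-4 DNAJB9 stood at -1.10 (SE 0.53, edgeR adjusted p = 0.348). In all reads DDIT3 (-2.66, SE 0.33), CHAC1 (-3.34, SE 0.62), SESN2 (-2.43, SE 0.43) and PPP1R15A (-2.27, SE 0.31) fell in AsPC-1 on the log2 scale, with edgeR adjusted p between 0.000797 and 0.00646, and 8.39% of all genes were lower. CHAC1 had 39 reads in all in these NVP2 libraries (0.0294 to 0.122 CPM). They alone could not have carried it past the filter, so it was tested because it was high after DMSO and could only be lower. In T3M-4 CHAC1 (-3.18, SE 0.29), SESN2 (-1.37, SE 0.24), PPP1R15A (-2.03, SE 0.39) and XBP1 (-0.76, SE 0.17) fell, with adjusted p between 0.000843 and 0.0350, beside 4.91% of all genes. Blocked by experiment, 7 members were lower in T3M-4, where 1544 of 15653 genes were lower against 769 without the block, with DDIT3 (-1.74, edgeR adjusted p = 0.000160), DNAJB9 (-1.30, adjusted p = 0.00900) and TRIB3 (-0.54, adjusted p = 0.0375) added. PPP1R15A had 3.81, 1.95, 4.22 and 4.41 CPM of all reads after NVP2 in AsPC-1 and 13.9, 11.7, 16.2, 26.0 and 20.7 after DMSO, with no overlap. HSPA5 had 195, 242, 224 and 295 against 183, 252, 184, 263 and 236 (log2 fold change 0.13, SE 0.18, edgeR adjusted p = 0.708). ASNS had 172, 297, 96.1 and 116 against 207, 195, 69.4, 87.8 and 99.7 (0.41, SE 0.41, edgeR adjusted p = 0.566).

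For a difference between the lines in the response to NVP2, 0 of 10 members were called, against 0.851% of genes, and DESeq2 called 0. Some estimates were large with a large SE, such as DDIT3 (-1.70, SE 1.04) and PPP1R15A (-1.01, SE 0.51). In AsPC-1 batch and treatment cannot be told apart, and the interaction carries this. An unadjusted edgeR p under 0.05 was found for 1 member and for 1811 of 13159 genes. That member was DNAJB9, with an interaction of -2.66 (T3M-4 minus AsPC-1, log2, SE 1.23, edgeR p = 0.0443, adjusted p = 0.350), a value that rests on the few T>C reads given above.

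Other genes of the pathways were counted from 5 lists of 93 genes in all. After dTAG and CB6644, 0 genes of any list were called in T>C reads by edgeR, while between 0 and 6 of each list had an unadjusted p under 0.05. The 6 were in the list of ATF4 targets after dTAG in AsPC-1, of 21 tested, where 1413 of 11696 genes had such a p. After NVP2, the shares of all genes called were 17.6% lower and 12.9% higher in AsPC-1 and 14.2% lower and 12.4% higher in T3M-4, with medians of -0.05 and -0.12, and the counts of each list stand beside these. Of the ATF4 and amino acid response targets 0 rose and 8 fell of 20 tested in AsPC-1, and 1 rose and 8 fell of 25 in T3M-4, with medians of -0.63 and -0.31, and the others did not pass the test. CEBPG (-2.93) and CEBPB (-2.86), partners of ATF4 on DNA, fell in AsPC-1. DDIT4 (-4.29), an inhibitor of mTORC1, and the secreted STC2 (-2.60) fell in T3M-4, where SLC7A5 (2.39), a carrier of large neutral amino acids, rose.

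Of the ATF6 branch and its chaperones 4 rose and 1 fell of 13 tested in AsPC-1 and 7 rose and 0 fell of 13 in T3M-4, with medians of 0.55 and 1.47, and the others did not pass the test. HYOU1 (1.37 and 1.47), a chaperone, and CRELD2 (1.51 and 2.04) rose in both lines, whereas HERPUD1 (-2.47), a part of the degradation machinery, fell in AsPC-1. In the IRE1 and XBP1 branch 4 rose and 2 fell of 20 in AsPC-1 and 7 rose and 1 fell of 20 in T3M-4, medians 0.46 and 0.77, with SEC61A1 (1.43 and 1.52), the channel of the membrane, higher and the ubiquitin ligase SYVN1 (-1.46 and -1.56) lower. PDIA6 (0.89), a disulfide isomerase, rose and DERL1 (-0.88) fell in AsPC-1, and SSR1 (1.26) rose in T3M-4. DNAJB9 and XBP1 themselves fell, as did SYVN1 in both lines and DERL1 in AsPC-1, while SEC61A1 rose in both. Most genes of the branch did not pass the test in either line.

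Of the aminoacyl-tRNA synthetases 4 rose and 1 fell of 11 in AsPC-1 and 2 rose and 0 fell of 12 in T3M-4, with LARS1 (1.21 and 0.90) higher in both, GARS1 (1.04) higher and TARS1 (-0.66) lower in AsPC-1, and WARS1 (1.03) higher in T3M-4. Among eIF2 kinases and eIF2 control 1 rose and 4 fell of 19 in AsPC-1 and 4 rose and 1 fell of 19 in T3M-4. The 4 lower in AsPC-1 and the 2 higher synthetases in T3M-4 are near the share of all genes. The heme-regulated kinase EIF2AK1 (1.22 and 1.35) rose in both and EIF2AK4 (GCN2, 2.03) in T3M-4. PPP1R15B (-3.28 and -3.41), the constitutive counterpart of PPP1R15A, fell in both, and EIF2B2 (-1.89) fell in AsPC-1. These rises are relative to the library's T>C reads: scaled by all reads, the median of all genes lies at -3.05 and -2.97 on the log2 scale, and none of the rises given here is larger than that shift.

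Across libraries, with group means removed, the genes whose log2 T>C CPM moved most like ASNS were PDCD4 (Pearson r 0.815), S100A2 (0.810), KYNU (0.809), TNFAIP8 (0.808) and CYP1B1 (0.798) over the 42 libraries of AsPC-1, and IFNAR2 (0.945), USP18 (0.937), NANS (0.929), GRK5 (0.917) and TRIM38 (0.909) over the 20 of T3M-4. Those most like HSPA5 were CCT8 (0.849), PSMB7 (0.814), POMP (0.812), PSMD4 (0.810) and YWHAQ (0.806) in AsPC-1, and BRD7 (0.871), TRA2A (0.855), MAP3K7 (0.827), DYNC1H1 (0.820) and RPL36AL (0.817) in T3M-4. No gene was shared between the lines for either anchor. The libraries share experiment, batch and library set, so these values are a description.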

How the data were processed

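The authors sequenced 3′ end SLAM-seq libraries and counted reads with slamdunk over GENCODE v44 3′UTR exons on hg38, summed per gene (slamdunk version not given in the sources used here). The deposited values are whole-number counts with no normalization, in 4 tables of 29794 genes, 1 of T>C reads and 1 of all reads per line. For dTAG library 3.1 of AsPC-1, all reads were left out because that column repeated T>C values of a DMSO 12 h library, so all-read and share values there have 9 dTAG libraries.

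Counts were tested with edgeR 4.0.16 (filterByExpr, TMM, quasi-likelihood) in R 4.3.3, fitting only both groups of a comparison. The labelled share was tested with limma 3.58.1 on log2 of T>C over other reads, each with a pseudocount of 0.5. Benjamini-Hochberg adjustment ran over all genes tested, and adjusted p under 0.05 was called. DESeq2 1.42.0 was an alternative. Differences between lines and times were interaction terms. SE is the fold change over the root of the F statistic. CPM are scaled within a comparison for T>C reads and within a line for all reads.

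The named genes are the 10 members, up to 2 called genes of smallest p per list, comparison and direction, the 5 genes most like ASNS and HSPA5, and KLF5. Members and lists were chosen with earlier results of these data known. Scripts were tested on simulated data. Same-numbered libraries deviated together in the dTAG comparisons (r 0.411 to 0.634) and at 12 h (0.33 to 0.65), where each number marks an experiment or library, in CB6644 at 4 h (0.457 and 0.504) and in T3M-4 NVP2 (0.316), but not in AsPC-1 NVP2 (-0.00449). Alternatives were other size factors, scaling by all reads, no filter, sums per experiment, replicate blocks, single batches, other controls, library sets and leaving out each library.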

Additional observations from a re-analysis of the deposited data

Results flagged for a closer look

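Of 240 groups of 4 to 10 libraries examined for single libraries far from the rest, 16 (6.67%) held one, where chance gives about 5%. By labelled share these were ASNS in AsPC-1 CB6644 4 h library 2.1 (9.06%), CHAC1 in T3M-4 dTAG 2.2 (75.5%), TRIB3 in T3M-4 DMSO 2.1 (23.4%), SESN2 in AsPC-1 dTAG 1.3 (42.9%), HSPA5 in AsPC-1 NVP2 1.1 (1.87%) and DNAJB9 in T3M-4 DMSO 2.1 (72.3%). By T>C CPM they were DDIT3 in AsPC-1 dTAG 1.1 (77.3), ASNS in AsPC-1 CB6644 4 h 1.1 (324), SESN2 in T3M-4 dTAG 2.2 (134), T3M-4 CB6644 2.2 (122) and AsPC-1 NVP2 1.2 (6.60), PPP1R15A in AsPC-1 dTAG 1.1 (144), HSPA5 in T3M-4 DMSO 1.1 (459), and DNAJB9 in AsPC-1 dTAG 3.3 (18.4), CB6644 12 h library 4 (9.58) and DMSO 12 h library 4 (6.61). The dTAG library 1.1 of AsPC-1 was highest for both DDIT3 and PPP1R15A.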

How the results depend on the processing

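For T>C reads of AsPC-1 NVP2, where 7 members were called, leaving out 1 library at a time gave 3 to 8: 3 without DMSO 2.1, 4 without DMSO 2.2 and 4 without NVP2 1.1. CHAC1 was tested in 5 of these 9 fits. Counts summed per experiment gave 2, the same with a replicate block 4, and library set and experiment as a block 4. The experiments joined by these blocks share a number but not a batch, and their libraries did not deviate together (r -0.00449). In T3M-4 NVP2, with 8 called, counts summed per experiment gave 0 (8 at an unadjusted p under 0.05) and batch 2 alone 5, each with fewer samples. In all reads, the replicate block called 1 member for AsPC-1 dTAG in place of 0 and 7 for T3M-4 NVP2 in place of 4, and DESeq2 called 7 for AsPC-1 NVP2 in place of 4. By labelled share, AsPC-1 dTAG had 3 members called and 0 in batch 2 alone, an alternative chosen after seeing the data. ASNS after NVP2 turned to -1.35 in AsPC-1 and -0.90 in T3M-4 when scaled by all reads. The replicate block changed no other count of members by over 1.5 times.

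Of the other counts of members, 289 with a library left out and 124 under other alternatives stayed within 1.5 times; of single values, 23 and 32 lost and 8 and 24 gained the call. Counts over all genes moved more, those in T>C reads first. AsPC-1 dTAG had 281 genes called, and 478 with DESeq2, 447 with the replicate block, 1190 scaled by all reads, 0 summed per experiment, 801 with library set and experiment as a block, and 103 and 16 in batch 1 and 2. T3M-4 dTAG had 112, and 340, 354, 0 summed, 292 summed with the block, 38 in batch 1 and 22 to 70 with any 1 of the 8 libraries left out. AsPC-1 NVP2 had 3506, and 10658 scaled by all reads, 1024 summed, 1347 summed with the block and 1616 with library set and experiment as a block. T3M-4 NVP2 had 3263, and 10536 scaled by all reads, 0 summed, 2077 summed with the block and 2168 to 3693 with 1 library left out. CB6644 had 0 in each comparison, and 5 with DESeq2 in T3M-4, 20 with DESeq2 at 12 h and 15 summed with the block in AsPC-1 at 4 h. In all reads AsPC-1 dTAG had 111, and 222 with DESeq2 and 229 with the block; T3M-4 dTAG 3, and 70, 84 and 0 with any 1 library left out; CB6644 0, 2 and 0, and 5, 10 and 19 with DESeq2. AsPC-1 NVP2 had 1667, and 2707 with DESeq2, 967 and 662 with the batch 2 controls and 837 to 2063 with 1 library left out; T3M-4 NVP2 had 807, and 1473, 2476 with the block and 492 to 823. By share AsPC-1 dTAG had 4516, and 29 in batch 2; T3M-4 dTAG 31, and 101 with the block, 1 and 0 in batch 1 and 2 and 11 to 27 with 1 library left out; AsPC-1 CB6644 at 4 h 194, and 308 with edgeR and all reads as offset and 30 to 222. At 12 h it had 2, and 0 with a larger pseudocount, with that offset or with the block. The interaction for dTAG had 6, and 37 with DESeq2, 29 with the block, 24 scaled by all reads and 1 to 10 with 1 library left out; that for CB6644 at 4 h 0, and 4 with DESeq2; that for NVP2 112, and 594, 225 with the block and 50 to 285. Few T>C reads of CHAC1, DDIT3, DNAJB9, TRIB3 and SESN2 after NVP2 limit those values.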
